A study of Mus musculus with 41 samples.

Results

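The comparison described here is that of IL-25 against base medium in cultured group 2 innate lymphoid cells (ILC2s) of the mouse small intestine. Its members are 6 of the 13 bulk RNA sequencing libraries of the series, 3 with IL-25 and 3 without, chosen by their labels and read across all 23419 genes of the table other than the ribosomal RNA precursor Rn45s. All cells came from female wild-type BALB/cJ mice aged 8 weeks. Each culture held 250 KLRG1+ ILC2s purified by flow sorting, and KLRG1 is a surface receptor that marks activated ILC2s. In the IL-25 group the medium held 100 ng/ml each of 3 cytokines, IL-25, IL-7 and IL-2. In the base medium group it held only IL-7 and IL-2 at the same doses, and both were kept for 3 hours. IL-2 and IL-7 are survival and growth factors of ILC2s, so the cells of the base medium group were themselves under cytokine stimulation. Another 7 libraries of the same culture were used as a second setting for the same cytokine, 3 with IL-25 and the neuropeptide α-CGRP at 0.4 µg/ml and 4 with α-CGRP alone, again with IL-2 and IL-7. The remaining samples of the series, single-cell libraries of intestinal immune cells, were not used.

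IL-25 is a cytokine of the IL-17 family that tuft cells of the gut epithelium release when they sense parasites or luminal metabolites. It binds a receptor of 2 chains, IL-17RB and IL-17RA, and the adaptor ACT1 with the ubiquitin ligase TRAF6 carries the signal to NF-κB and the MAP kinases. ILC2s answer by secreting IL-5, IL-13 and IL-9, which draw in eosinophils, make goblet cells and smooth muscle respond, and feed mast cells.

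After the removal of Rn45s the 6 libraries held 1966212 to 6887309 expected counts, and 13949 to 17275 genes had a count above 0. Rn45s took 71.7% ± 3.85 of all counts with IL-25 and 72.8% ± 4.03 in base medium (SD, n = 3 each, exact two-sided permutation p = 0.8, smallest possible 0.10). Whether libraries within a group derive from different mice or cultures is not in the labels, so all p-values refer to the spread of these libraries, possibly technical in part. In such bulk libraries a smaller number of expressing cells and less RNA per cell cannot be told apart. The defining ILC2 genes were present throughout. Gata3, the lineage transcription factor, averaged 1374 ± 214 CPM (counts scaled to a common library size) with IL-25 and 1175 ± 122 CPM in base medium. Klrg1 averaged 403 ± 143 CPM with IL-25 and 364 ± 56 CPM in base medium. The 11 ILC2 markers summed to 6355 to 8193 CPM with IL-25 and to 5362 to 6222 CPM in base medium, without overlap (exact two-sided permutation p = 0.1, the smallest possible). Most of that gap came from Icos (means of 1729 against 1118 CPM), Il2ra (845 against 459 CPM) and Rora (906 against 646 CPM). Il17rb, Il7r, Thy1 and Ptprc had lower means with IL-25 than in base medium. The T cell receptor chain genes Cd3e and Cd3d stayed at 3.58 CPM or less in these 6 libraries, and the mast cell proteases Cpa3, Mcpt1, Mcpt2, Mcpt4 and Tpsb2 at 0.577 CPM or less. Epcam, known from epithelial cells, had 124 to 255 CPM, while the epithelial keratin Krt8 had 0 to 16.6 CPM. Ncr1, a receptor of NK cells and ILC3s, had 100.96 to 271 CPM, and Il22, the ILC3 cytokine, had 15.7 to 603 CPM with overlapping groups. The 8 NK cell and ILC1 markers summed to 515 to 813 CPM with IL-25 and to 542 to 689 CPM in base medium. Among them Gzmb had 208 to 364 CPM and Prf1 62.0 to 116 CPM. Macrophage, monocyte and dendritic cell markers summed to 73.5 to 110 CPM with IL-25 and to 65.9 to 126 CPM in base medium. The same ranges were 35.2 to 119 and 52.4 to 147 CPM for neutrophil markers. For B and plasma cell markers they were 13.3 to 85.9 and 11.4 to 46.1 CPM. The 9 T cell markers summed to 37.3 to 73.5 CPM with IL-25 and to 83.0 to 91.3 CPM in base medium, led by Cd3g and Lat, and the part of these marker sums in the results below was not tested. The 8 mast cell markers summed to 253 to 302 CPM with IL-25 and to 116 to 211 CPM in base medium, nearly all of it from Kit, which ILC2s express too. Of all 13 libraries CGRP library 2 stood apart, with a median correlation over genes of 0.81 to the other 12 and 228 CPM of the macrophage gene Lyz2, against 0 to 5.54 CPM elsewhere.

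Of 12618 genes with enough counts to be tested, 9 rose with IL-25 at an adjusted p under 0.05 (0.0713% of genes) and none fell. This count comes from edgeR's quasi-likelihood test with Benjamini-Hochberg adjustment over all genes tested, the source of every adjusted p below unless another tool is named. At an unadjusted p under 0.05 there were 280 genes higher (2.22%) and 213 lower (1.69%). DESeq2 called 23 genes higher and 2 lower, and all 9 genes were among them. The 9 genes were the cytokine genes Il5, Il13, Il9 and Csf2, the kinase gene Pim2, the prostaglandin synthase gene Ptgs2, and Mmrn1, Reln and Sdpr, which are known from endothelial and other non-lymphoid cells. The count fell to 3 without base medium library 2 and to 4 without IL-25 library 1. The median log2 fold change of all genes tested was 0.00899. The plot of fold change against level shows where these genes lie.

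**Figure D1:**
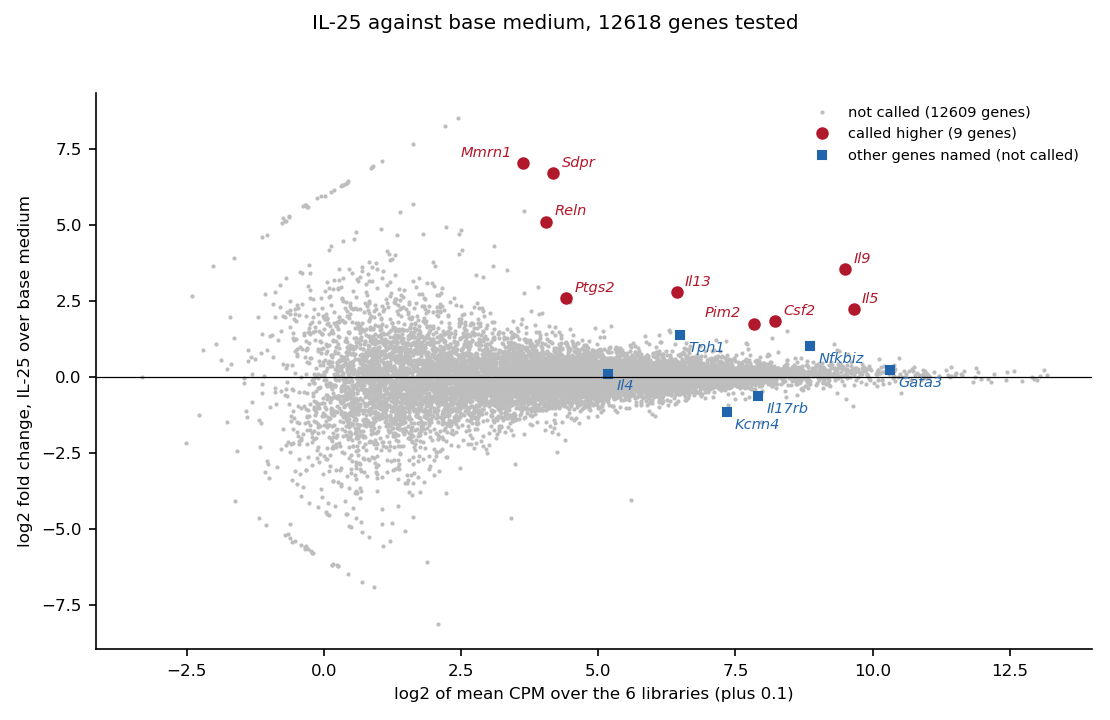
Log2 fold change of IL-25 over base medium (vertical axis) against the log2 mean level in CPM over the 6 libraries (horizontal axis), 1 point per gene tested. The 9 genes called higher are red, 6 other genes named in the text are blue, and Mmrn1, Sdpr and Reln combine high fold changes with low levels.

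Il5 encodes IL-5, the growth and survival factor of eosinophils, and had the lowest p-value of all genes. It had 871, 1760.3 and 1361 CPM in the 3 IL-25 libraries, against 275, 279.8 and 288 CPM in the 3 base medium libraries. All IL-25 libraries lay far above base medium, where the libraries hardly differed from each other. The log2 fold change was 2.24 ± 0.28 (SE), a 4.74-fold difference with an adjusted p of 0.000551. Per transcript length Il5 stood at rank 43 of 22994 genes with IL-25 and at rank 224 in base medium, with 2702 ± 723 TPM with IL-25 and 615 ± 34.6 TPM in base medium, TPM being the abundance of transcripts corrected for their length.

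Il13 encodes IL-13, which drives mucus production by goblet cells and smooth muscle contraction. It had 100.1, 179.6 and 172 CPM with IL-25, against 29.5, 16.6 and 18.6 CPM in base medium. The groups did not overlap, with IL-25 higher as in 5.18% of all genes tested, and the lowest IL-25 library was above 3 times the highest base medium library. The log2 fold change was 2.80 ± 0.40 (adjusted p = 0.00252), or 6.96-fold.

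Il9 encodes IL-9, a factor for mast cells and for ILC2s themselves. It had 901, 1874 and 1211 CPM with IL-25, against 28.2, 165 and 147 CPM in base medium. The base medium libraries differed by more than 5 times among themselves, yet all of them lay far below the IL-25 libraries. The log2 fold change of 3.55 ± 0.54 (adjusted p = 0.00404), or 11.7-fold, was the largest of the 6 called genes that are not known from endothelial cells. Per length, Il9 stood at rank 14 of 22994 genes with IL-25 and at rank 192 in base medium, with 7661 ± 1906 TPM with IL-25 and 716 ± 483 TPM in base medium. Csf2 encodes GM-CSF, a growth factor of granulocytes and macrophages. It had 391, 679.8 and 327 CPM with IL-25, against 199.8, 67.1 and 121 CPM in base medium, and the groups did not overlap. The log2 fold change was 1.85 ± 0.36 (adjusted p = 0.0436).

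**Figure D2:**
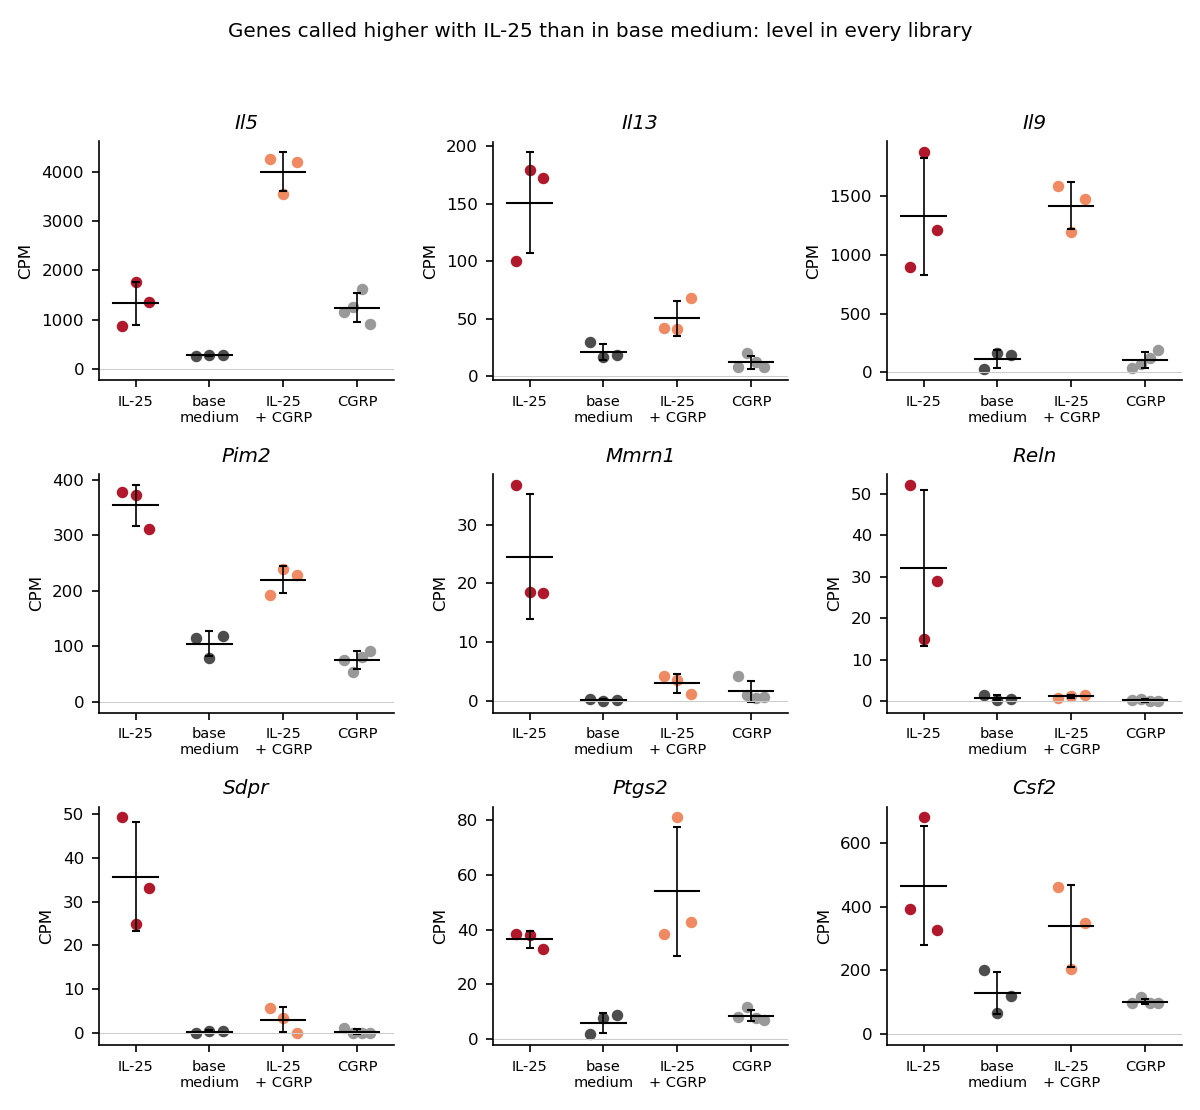
Level in CPM (linear axes from 0, a different scale for each gene) of the 9 genes called higher with IL-25, in every library of the 4 groups. Points are libraries, and bars give the mean and SD of 3 libraries (4 for CGRP). In each panel all 3 IL-25 libraries lie above all 3 base medium libraries.

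These 4 cytokine genes were called among 24 members tested of a list of type 2 cytokines and secreted ILC2 products (16.7%). Of all genes tested 0.0713% were called higher, and no member of the list was called lower. The list's median log2 fold change was 0.40, and 17 of the 24 members had a value above 0. A further member, Il6, had 57.1 ± 21.5 CPM with IL-25 and 17.5 ± 7.58 CPM in base medium (adjusted p = 0.56). Members that define the list did not all move with Il5 and Il13. Il4, the partner of IL-13 on their shared receptor, had 37.6 ± 13.7 CPM with IL-25 and 34.4 ± 10.8 CPM in base medium, a log2 difference of 0.11 ± 0.40. Areg, the epithelial repair factor amphiregulin, had 16.2 ± 2.43 CPM with IL-25 and 22.5 ± 5.6 CPM in base medium. Calca, which encodes CGRP itself, was high in both groups, with 2331 ± 781 CPM with IL-25 and 2098 ± 341 CPM in base medium.

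Il5, Il13 and Csf2 lie together with Il4 in a cytokine gene cluster on mouse chromosome 11. By GENCODE M21 on mm10, Il13 spans chr11:53631324-53634702 on the minus strand, Il5 spans chr11:53720794-53725106 on the plus strand, and Csf2 spans chr11:54247271-54249667 on the minus strand. Between Kif3a and Acsl6, a stretch of 797 kb, the annotation holds 16 protein-coding genes, of which 11 were tested. Of these the 3 cytokine genes were called higher and none lower, where 0.0713% of all genes tested were called higher. Rad50, the DNA repair gene between Il13 and Il5 that holds a control region of the cluster, had 135 ± 25.6 CPM with IL-25 and 147 ± 27.4 CPM in base medium. Irf1, the interferon regulatory factor gene next to Il5, had 185 ± 40.6 CPM with IL-25 and 198 ± 54.5 CPM in base medium. Il3 was listed at 0 in all 6 libraries, and the base medium and IL-25 groups overlapped for each of the other genes tested there. Il9 lies apart, at chr13:56479277-56482246 on the minus strand.

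The promoters of the 4 cytokine genes are shown because these genes moved together and the receptor signals to NF-κB. Each run gives the 250 bases before the start in RefSeq, build GRCm38.p6, 5′ to 3′ on the gene's strand. Capitals mark matches to the NF-κB motif GGNNTTTCC or the AP-1 motif TGAGTCA on either strand.
Il5 (chr11:53720544-53720793, plus strand): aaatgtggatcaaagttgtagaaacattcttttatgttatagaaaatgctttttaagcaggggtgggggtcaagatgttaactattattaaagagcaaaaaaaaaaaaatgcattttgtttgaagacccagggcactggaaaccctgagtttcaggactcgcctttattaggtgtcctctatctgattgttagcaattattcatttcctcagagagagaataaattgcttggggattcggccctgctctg
Il13 (chr11:53634703-53634952, minus strand): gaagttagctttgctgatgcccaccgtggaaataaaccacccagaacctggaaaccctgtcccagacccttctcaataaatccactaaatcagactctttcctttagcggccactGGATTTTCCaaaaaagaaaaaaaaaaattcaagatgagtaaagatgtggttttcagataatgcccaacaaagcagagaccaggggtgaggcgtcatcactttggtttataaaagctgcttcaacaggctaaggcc
Il9 (chr13:56482258-56482507, minus strand): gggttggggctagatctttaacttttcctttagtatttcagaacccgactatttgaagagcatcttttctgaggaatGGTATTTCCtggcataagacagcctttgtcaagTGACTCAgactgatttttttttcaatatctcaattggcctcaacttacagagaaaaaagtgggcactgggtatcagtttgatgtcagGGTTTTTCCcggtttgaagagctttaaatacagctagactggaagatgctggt
Csf2 (chr11:54249900-54250149, minus strand): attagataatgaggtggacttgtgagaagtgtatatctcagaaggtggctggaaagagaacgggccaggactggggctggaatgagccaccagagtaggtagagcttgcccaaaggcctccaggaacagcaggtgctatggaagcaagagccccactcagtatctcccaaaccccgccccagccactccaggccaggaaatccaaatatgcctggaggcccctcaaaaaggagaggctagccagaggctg
In Il9 the NF-κB letters occurred at 173 and 53 bases before the start and the AP-1 letters at 140 bases before it. In Il13 the NF-κB letters began 135 bases before the start. Csf2 had a match in the 50 bases after its RefSeq start, and Il5 had none. The RefSeq starts of Csf2 and Il9 lie upstream of the GENCODE ends given above, so the window of Csf2 does not adjoin the GENCODE gene.

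Over the whole window of 250 bases before to 50 after the start, 4 of the 9 called genes held the NF-κB letters (44.4%), namely Il9, Il13, Csf2 and Mmrn1. Among all genes tested 10009 had a promoter in RefSeq, and 5.99% of these held the letters. For the AP-1 motif the shares were 11.1% of the called genes and 3.71% of all, and for the EGR motif GCGGGGGCG 11.1% and 5.14%. The short NFAT motif GGAAA, which the NF-κB letters contain, occurred in 88.9% of the called genes and in 59.7% of all. Neither the CRE motif TGACGTCA nor the STAT motif TTCNNNGAA occurred in a called gene, and 3.3% and 7.17% of all promoters held them. These are matches of letters in 9 promoters, with no test and no statement on binding.

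Outside the cytokines, Pim2 and Ptgs2 rose. Pim2 encodes a serine/threonine kinase that promotes growth and survival and is induced by cytokine receptors through STAT5. It had 378, 372 and 311 CPM with IL-25, against 115, 78.3 and 119 CPM in base medium, with little spread within either group. Its log2 fold change was 1.76 ± 0.27 (adjusted p = 0.00408). Ptgs2 encodes cyclooxygenase 2, the inducible enzyme of prostaglandin synthesis. It had 38.4, 38.1 and 32.8 CPM with IL-25, against 1.79, 7.61 and 8.64 CPM in base medium. The IL-25 libraries were close to each other and all above base medium, with a log2 fold change of 2.59 ± 0.50 (adjusted p = 0.0434). Ptger2, which encodes a receptor for prostaglandin E2, a product of this pathway, had 115 ± 25.8 CPM with IL-25 and 53.7 ± 3.43 CPM in base medium and was not called.

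Mmrn1, Reln and Sdpr had the largest fold changes of the called genes. Mmrn1 encodes multimerin 1, a protein of platelets and endothelium that is high in lymphatic endothelial cells. It had 36.8, 18.5 and 18.4 CPM with IL-25, against 0.256, 0 and 0.163 CPM in base medium. Reln encodes reelin, a secreted glycoprotein of neurons and lymphatic endothelium, and had 52.2, 14.99 and 28.97 CPM with IL-25, against 1.54, 0.448 and 0.652 CPM in base medium. Sdpr, named Cavin2 in GENCODE, encodes a coat protein of caveolae and had 49.3, 24.8 and 33.1 CPM with IL-25, against 0, 0.448 and 0.489 CPM in base medium. For all 3 genes every IL-25 library held them and base medium was near 0. The adjusted p was 0.00548 for Mmrn1, 0.0157 for Reln and 0.0242 for Sdpr. Reln and Sdpr had enough counts to be tested only through the 3 IL-25 libraries, the group where they are high. Their p-values therefore describe that rise and are not separate support for it. Since base medium held so few counts, the ratio of depth-scaled counts is given with its exact 95% interval. The interval covers the counting error of pooled reads only, not the spread between libraries, and may be too narrow. It was 141 (38.6 to 1165) for Mmrn1 from 349 counts against 2, 35.2 (19.5 to 70.9) for Reln from 480 against 11, and 108 (41.9 to 398) for Sdpr from 536 against 4.

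Further genes known from endothelium are given beside these 3. None of them was called against base medium by edgeR over all 13 libraries with the low-count filter. Lyve1, a hyaluronan receptor of lymphatic endothelium and some macrophages, had 27.2, 11.8 and 34.0 CPM with IL-25, against 1.54, 0 and 0 CPM in base medium (adjusted p = 0.117). Lyve1 was called without base medium library 1 (0.0218) or CGRP library 2 (0.04499). It was also called by DESeq2 (0.000547), without the low-count filter (0.000985) and in a model of only the 6 libraries (0.00249). Emcn, another endothelial gene, was called in the model of only the 6 libraries, and Cldn5 without the low-count filter. Lyve1 and Emcn, like Reln and Sdpr, passed that filter only through the IL-25 libraries, the group where they are high. These calls therefore describe that rise and are not separate support for it. A list of 8 lymphatic endothelial genes, chosen after these values were seen and holding Mmrn1, Reln and Lyve1, summed to 64.9 to 169 CPM with IL-25 and to 2.28 to 12.04 CPM in base medium, and 4 of the 8, those 3 and Flt4, were higher in every IL-25 library than in any of base medium. A list of 11 genes of endothelium in general, without Pecam1, summed to 48.4 to 89.4 CPM with IL-25 and to 4.61 to 9.13 CPM in base medium, and 8 of the 11 were higher in every IL-25 library, although for Cdh5 and Tek the nearest IL-25 and base medium libraries held 1 count each. These counts describe lists chosen on the same values. Of all genes tested 5.18% lay higher in every IL-25 library than in any of base medium. Cdh5, Tek, Tie1 and Cldn5 had too few counts to be tested, so that share does not cover them. Of the defining markers, Prox1 stayed at 1.25 CPM or less and Pdpn at 3.33 CPM or less in all 6 libraries, Sox17 was at 0 with IL-25, and Cdh5 had 0.288 to 4.53 CPM with IL-25 and 0 to 0.256 CPM in base medium. Ccl21a was found in 1 library of the 6, IL-25 library 3, at 25.5 CPM. The part of such cells in the levels of Mmrn1, Reln and Sdpr was not tested. Pecam1, an adhesion receptor of endothelium and leukocytes, was higher in level than these. It had 149, 142 and 173 CPM with IL-25 and 62.7, 88.6 and 75.5 CPM in base medium. Its adjusted p was 0.459 with edgeR and 0.0425 with DESeq2.

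**Figure D3:**
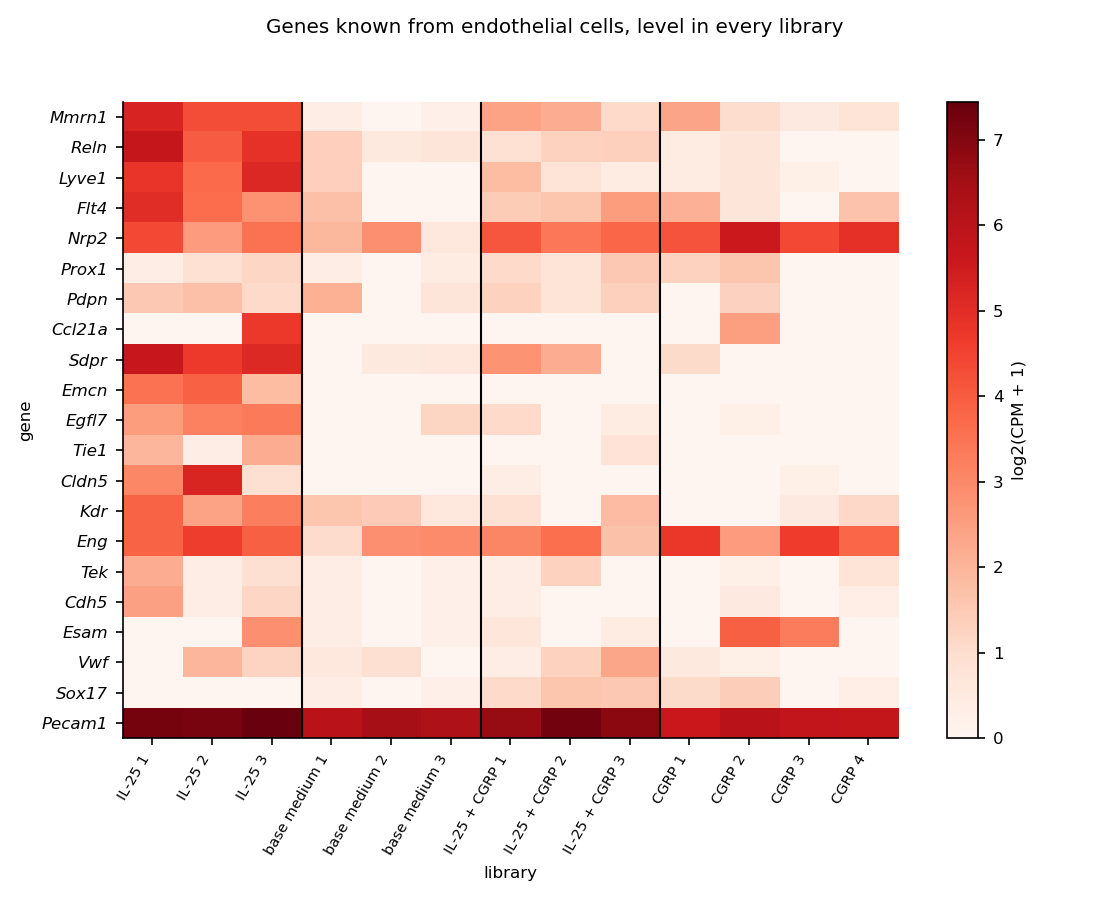
Level, as log2(CPM + 1), of 21 genes known from endothelial cells (rows) in each of the 13 libraries (columns). Rows from Mmrn1 to Ccl21a are the 8 lymphatic genes. Mmrn1, Reln, Lyve1 and Sdpr lie at 11.8 CPM or more in the 3 IL-25 libraries and at 5.68 CPM or less in the other 10, and Emcn lies at 2.50 to 13.8 CPM with IL-25 and at 0 elsewhere.

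The receptor and its nearest signalling genes were not called. Il17rb, the IL-25 binding chain, had 200.3, 204 and 163 CPM with IL-25, against 293, 256 and 325 CPM in base medium. Every IL-25 library lay below every base medium library, as was the case for 4.2% of all genes tested, and the log2 fold change of -0.62 ± 0.24 missed the threshold (unadjusted p = 0.0151, adjusted p = 0.9996). Il17ra, the shared second chain, had 83.5 ± 16.4 CPM with IL-25 and 90.8 ± 18.4 CPM in base medium. Traf3ip2, which encodes ACT1, and Traf6 differed by -0.16 ± 0.32 and -0.15 ± 0.34 on the log2 scale. Of the 19 genes of this list none was called, 7 had a log2 fold change above 0, and the median was -0.12.

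The NF-κB list of subunits, inhibitors and feedback genes had no called member among 27 tested, with 19 of 27 above 0 and a median log2 fold change of 0.26. At an unadjusted p under 0.05 there were 4 higher and 0 lower, against 2.22% and 1.69% of all genes tested. Nfkbiz, which encodes the nuclear co-activator IκBζ, had 624 ± 8.83 CPM with IL-25 and 308 ± 19.0 CPM in base medium. Its log2 difference of 1.02 ± 0.24 had an adjusted p of 0.205 with edgeR and of 0.00155 with DESeq2. Bcl3, a nuclear IκB protein, had 50.1 ± 5.06 CPM with IL-25 and 17.7 ± 3.92 CPM in base medium (adjusted p = 0.541). Nfkbia, the feedback inhibitor IκBα, had 868 ± 211 CPM with IL-25 and 477 ± 90.8 CPM in base medium (adjusted p = 0.9996). Tnfaip3, the deubiquitinase A20, had 147 ± 13.97 CPM with IL-25 and 165 ± 30.7 CPM in base medium, with overlapping groups. These genes define the list or had its lowest p-values, and the second kind was picked after the values were seen, here and for the lists below.

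Of 28 immediate early and AP-1 transcription factor genes none was called, while 7 were higher and 1 lower at an unadjusted p under 0.05. Among all genes tested 2.22% were higher and 1.69% lower at that threshold. Nr4a1, an orphan nuclear receptor gene induced by receptor signalling, had 409 ± 111 CPM with IL-25 and 166 ± 70.7 CPM in base medium. Irf4, a transcription factor of cytokine-producing lymphocytes, had 116 ± 22.9 CPM with IL-25 and 41.5 ± 9.10 CPM in base medium. Nr4a1 and Irf4 both had an adjusted p of 0.205, while DESeq2 called them at 0.0230 and 0.0263. Egr2, a zinc finger factor, had 21.7 ± 3.59 CPM with IL-25 and 2.98 ± 2.20 CPM in base medium (adjusted p = 0.437, or 0.0481 with DESeq2). Myc, the growth regulator, had 224 ± 63.0 CPM with IL-25 and 99.1 ± 25.6 CPM in base medium (adjusted p = 0.541). Fos, the classic early AP-1 gene, had 24.8 ± 22.8 CPM with IL-25 and 48.2 ± 14.1 CPM in base medium, a log2 fold change of -0.93 that was not called. Without IL-25 library 3 it was -2.08 and Fos was called lower (adjusted p = 0.0453).

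Pim2 was the 1 called member of 16 in the list of STAT5 and SOCS feedback genes and Pim kinases (6.25%). Of all genes tested 0.0713% were called higher, and the list's median log2 fold change was 0.32. Pim3 had 96.2 ± 19.96 CPM with IL-25 and 43.6 ± 14.05 CPM in base medium, and Pim1 had 395 ± 82.6 CPM with IL-25 and 225 ± 91.1 CPM in base medium. Il2ra, the high-affinity chain of the IL-2 receptor, had 845 ± 96.0 CPM with IL-25 and 459 ± 33.9 CPM in base medium (adjusted p = 0.496, or 0.0347 with DESeq2). Cish, a STAT5 feedback inhibitor that IL-2 and IL-7 induce, had 1038 ± 162 CPM with IL-25 and 871 ± 178 CPM in base medium.

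Among 25 ILC2 identity genes none was called and the median log2 fold change was -0.20. Tph1, which encodes the enzyme that starts serotonin synthesis, had 123, 147 and 118 CPM with IL-25, against 57.6, 40.3 and 51.1 CPM in base medium. Its groups did not overlap, with IL-25 higher as in 5.18% of all genes tested. The log2 fold change of Tph1, 1.37 ± 0.30, had an adjusted p of 0.145, or 0.0052 with DESeq2. Among 21 chemokine and chemokine receptor genes, Ccr4, a homing receptor of type 2 lymphocytes, had 573, 556 and 409 CPM with IL-25, against 236, 141 and 158 CPM in base medium. Its log2 fold change of 1.52 ± 0.34 had an adjusted p of 0.177, or 0.0195 with DESeq2 and 0.0114 without CGRP library 2. No gene of that list was called against base medium by edgeR over all 13 libraries with the low-count filter. Ccr4 was called by edgeR without that filter (0.000539) and in a model of only the 6 libraries (0.00701).

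No gene was called lower, by this test. The 2 lower genes with the lowest p-values, Palld and Kcnn4, are given with that limit. Palld, which encodes an actin-bundling protein, had 0, 0.288 and 0.125 CPM with IL-25, against 1.79, 5.82 and 0.816 CPM in base medium (adjusted p = 0.165). Kcnn4, a calcium-activated potassium channel of lymphocytes, had 62.1, 103 and 137 CPM with IL-25, against 172, 239 and 257 CPM in base medium, a log2 fold change of -1.14 ± 0.31 (adjusted p = 0.495). Both showed groups that did not overlap, with IL-25 lower as in 4.2% of all genes tested, and both were picked by their p-values. Rgs2, a regulator of G protein signalling, had 53.9 ± 5.67 CPM with IL-25 and 100.9 ± 25.1 CPM in base medium (adjusted p = 0.707). Of the 12 lower genes with the lowest p-values, which also included Gsn, Gpr146, Tmem175, Zfp46, Tdpoz2, Slc2a8, Sla2, Ccnb1 and Lig1, none had an adjusted p under 0.165. Without the low-count filter Palld (0.0143) and Gsn (0.000596) were called lower, and Palld was also called without base medium library 3 (0.04225).

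The other lists had no called member. Ribosome biogenesis and Myc target genes had a log2 fold change above 0 in 27 of 30 members, with a median of 0.38, against 6407 of 12618 among all genes. Interferon response genes were above 0 in 3 of 22 members, with a median of -0.40, and heat shock chaperones in 5 of 13, with a median of -0.22. Secretory pathway and unfolded protein response genes were above 0 in 17 of 20 members, with a median of 0.11. Glycolysis and nutrient transport genes had a median of 0.04, cholesterol genes of -0.03 and cell cycle genes of -0.16. The members of a list share libraries and regulation, so these counts describe the lists and carry no test.

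**Figure D4:**
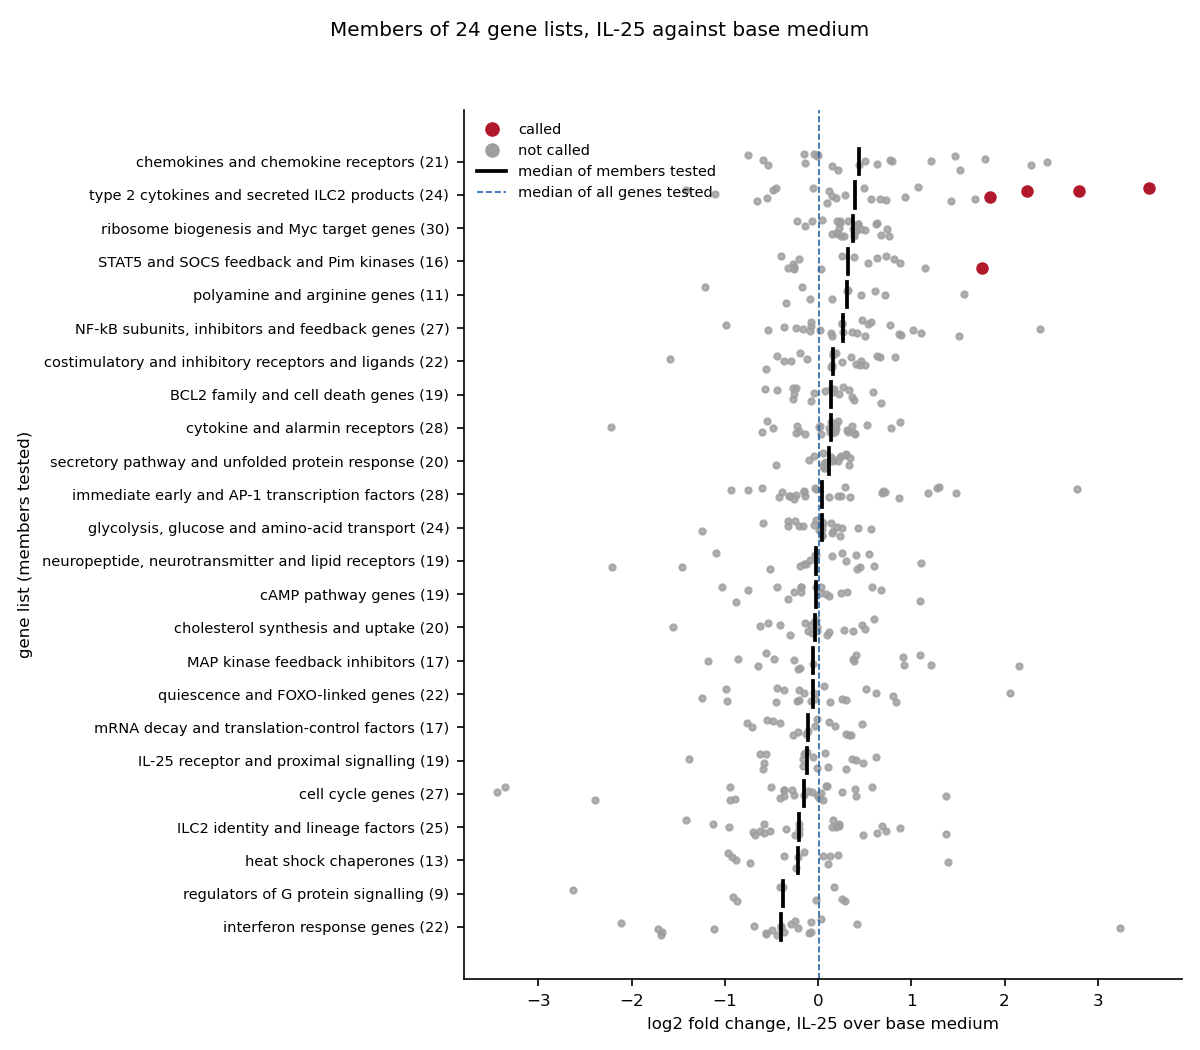
Log2 fold change of IL-25 over base medium (horizontal axis) for the members of 24 gene lists (rows, with the number of members tested), ordered by median. Red points are the 5 called genes, black bars the medians of the lists, and the dashed line the median of all genes tested. The called genes lie in the lists of type 2 cytokines and of STAT5 and Pim kinases.

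The same cytokine was added in 7 further libraries that share no library with the comparison above, 3 with IL-25 and CGRP and 4 with CGRP alone. There 13 genes were called higher with IL-25 (0.103%) and 1 lower (0.00793%). The total of 14 became 28 without CGRP library 2, and 8 and 9 without CGRP libraries 1 and 4. It became 9, 8 and 5 without IL-25 with CGRP libraries 1, 2 and 3, and all 14 genes were among the 28. All 9 genes had the same direction in this setting, as did 51.7% of all genes tested, and 6 of the 9 were called again, namely Il5, Il13, Il9, Csf2, Pim2 and Ptgs2. These 6 were 66.7% of the genes called without CGRP and 42.9% of the 14 called with it. Il9 had a log2 fold change of 3.76 ± 0.49 (adjusted p = 0.000836), with 1584, 1196 and 1481 CPM in IL-25 with CGRP and 34.9, 69.0, 123 and 194 CPM in CGRP. Il5 had 4255, 3546 and 4199 CPM in IL-25 with CGRP and 1158, 1268, 1628 and 917 CPM in CGRP, a log2 fold change of 1.69 ± 0.25 (adjusted p = 0.00312). Il13 had 42.3, 40.9 and 67.9 CPM in IL-25 with CGRP and 8.03, 20.5, 12.1 and 7.95 CPM in CGRP, a log2 fold change of 2.06 ± 0.37 (adjusted p = 0.0128). In all 3 genes the libraries with IL-25 lay above those without it, as in 4.83% of all genes tested. Il5 and Il9 kept their calls there whichever single library was left out. With a replicate block in the model, Il13, Csf2 and Ptgs2 were not called there. Il13 lost its call without CGRP library 1 or 4 or IL-25 with CGRP library 3 and in a model of these 7 libraries alone, Csf2 without any 1 of 5 of these 7 libraries, Ptgs2 without IL-25 with CGRP library 2, and Pim2 without IL-25 with CGRP library 3.

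Mmrn1, Reln and Sdpr were not called in that setting, where IL-25 with CGRP gave 1.11 to 4.26 CPM for Mmrn1, 0.852 to 1.48 CPM for Reln and 0 to 5.68 CPM for Sdpr. CGRP alone gave 0.431 to 4.17 CPM for Mmrn1, 0 to 0.614 CPM for Reln and 0 to 1.08 CPM for Sdpr. Genes that missed the threshold against base medium but were called there included Tph1 (log2 fold change 2.02 ± 0.28), Gadd45g, a stress-induced regulator of MAP kinase signalling (1.68 ± 0.26), Irf4 (1.65 ± 0.32), Nr4a1 (1.44 ± 0.28) and Nfkbiz (1.17 ± 0.22). Tph1 and Gadd45g kept those calls whichever single library was left out, while Irf4, Nr4a1 and Nfkbiz each lost theirs without 1 of several of the 7 libraries. The difference of the 2 IL-25 effects, the one with CGRP minus the one without, was tested in the same model and no gene passed, while 554 had an unadjusted p under 0.05 (4.39%) and DESeq2 called 0. For Il5 that difference was -0.56 ± 0.37 and for Il9 0.21 ± 0.67 on the log2 scale, and for Mmrn1 it was among the 3 with the lowest adjusted p, 0.658, and passed when the low-count filter was left out. Averaged over both settings, a contrast chosen after the values were seen and made from the same libraries, 29 genes were higher with IL-25 (0.23%) and 2 lower (0.0159%). Mmrn1, Reln, Sdpr and Lyve1 were among the 29, although none of them was called with CGRP. A call in the average therefore need not mean a rise in both settings. The plot of both effects sets some of the genes named in the text side by side.

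**Figure D5:**
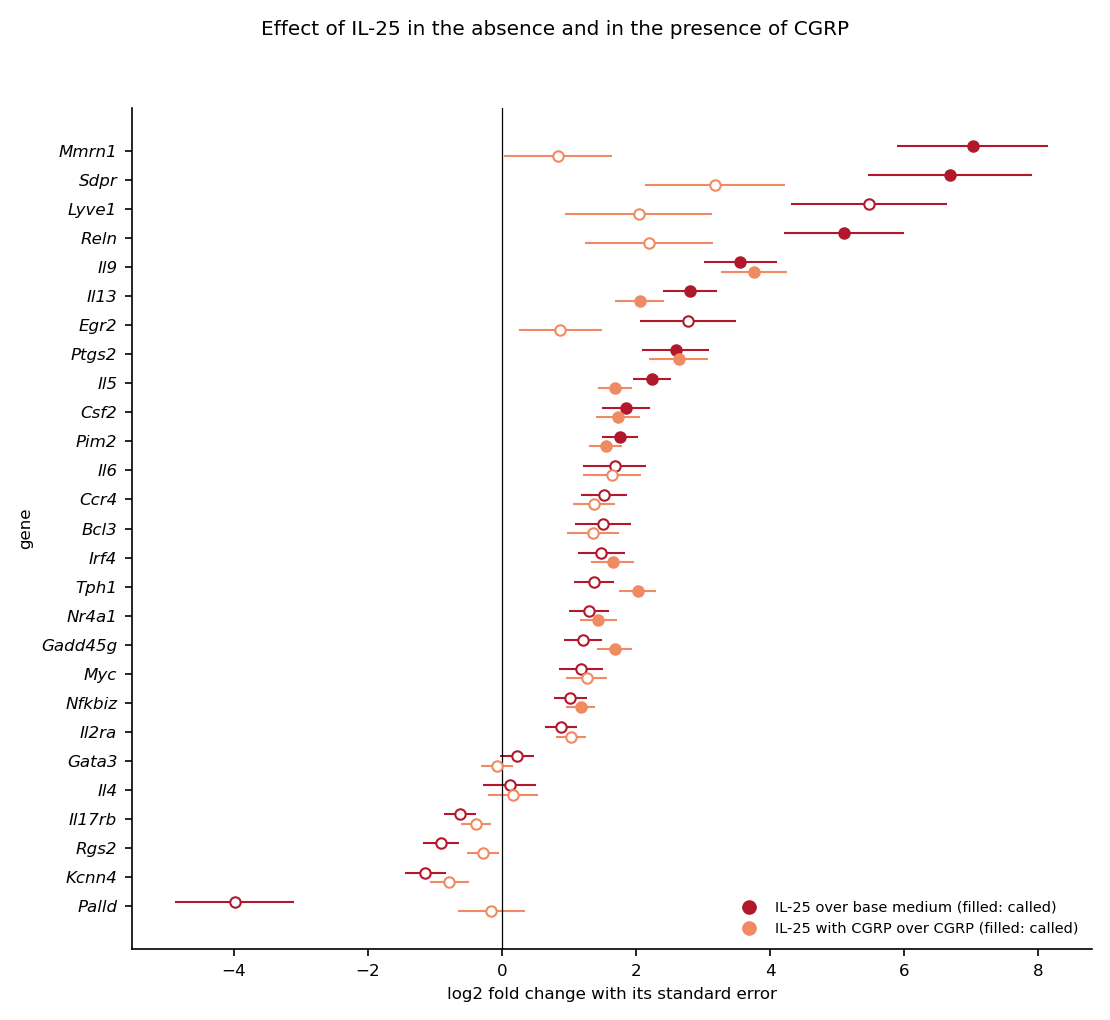
Log2 fold change with its standard error for 27 genes (rows), for IL-25 over base medium (dark red) and for IL-25 with CGRP over CGRP (orange). Filled points passed an adjusted p of 0.05. For Il9, Il13, Ptgs2, Il5, Csf2 and Pim2 both points are filled and right of 0, and for Mmrn1, Reln and Sdpr the orange points are open.

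The calls differed in how much they rested on single libraries. Il5, Il13 and Il9 passed under all 20 alternatives tried, with adjusted p-values of at most 0.0162, 0.04025 and 0.0199. Pim2 passed in all but 1, without base medium library 2 (adjusted p = 0.114). Csf2 lost the call without base medium library 2 (0.531) or 3 (0.538) or IL-25 library 1 (0.164) or 2 (0.438), with RLE scaling (0.0614), and also without CGRP library 1 (0.101) or 4 (0.0711) or IL-25 with CGRP library 3 (0.0637). Ptgs2 lost it without any 1 of the 6 libraries compared (0.0641 to 0.190) and without 5 of the other 7. Mmrn1 lost it without IL-25 library 1 (0.129) or base medium library 2 (0.0713) or 3 (0.0641), and Reln without IL-25 library 1 (0.581) or 3 (0.0654) or base medium library 2 (0.127) or 3 (0.151). Sdpr lost it without any 1 of the 6 libraries (0.0618 to 0.261). The direction of all 9 genes was the same in every alternative.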

How the data were processed

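RNA from sorted and cultured ILC2s was made into Smart-seq2 libraries without molecular identifiers, per the labels' protocols. Reads were not collapsed to molecules, so intervals from counts treat each read as separate and may be too narrow. The authors deposited expected counts per gene for 13 bulk libraries. The submitters' processing notes name bcl2fastq, Bowtie2, RSEM, Cell Ranger and the build mm10, and versions are not given in the sources used here. Expected counts were rounded to whole numbers and Rn45s was removed. Genes passing filterByExpr (minimum count 10, minimum total 15) numbered 12618 of 23419. They were scaled by TMM and fitted for all 13 libraries in 1 model with edgeR 4.0.16 (limma 3.58.1, R 4.3.3), after a test on simulated data. Calls had a Benjamini-Hochberg adjusted p under 0.05. CPM use TMM-scaled totals, and TPM use GENCODE M21 lengths, matched by symbol for 22994 genes. DESeq2 1.42.0, RLE scaling, no low-count filter, fewer libraries, kept Rn45s, recomputed library sizes and a replicate block were alternatives. Genes were named by call and p-value, by list membership or as defining members, some of them with values per library. The members and lists were chosen with earlier results of these data known. A mitochondrial RNA share was planned but not computed, since the table names no mitochondrial gene. Single-cell libraries were not analysed here.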

Additional observations from a re-analysis of the deposited data

Results flagged for a closer look

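In the group of 4 CGRP libraries, which serves as the control of IL-25 with CGRP, 4 genes had 1 library far from the others relative to the range of the group. These were 4 of 26 groups of 4 libraries tested, and chance flags about 1 in 20. Csf2 had 115.9 CPM in CGRP library 2, against 97.1 to 97.99 CPM in the other 3, a close cluster in which a small gap was enough. Ccnb1, which encodes the mitotic cyclin B1, had 18.6 CPM in CGRP library 2, against 1.54 to 4.09 CPM in the others, and it is the library that correlated least with the rest. Mmrn1 had 4.17 CPM in CGRP library 1, against 0.431 to 1.02 CPM in the others. Sdpr had 1.08 CPM in the same library and was at 0 in the other 3, where any count in 1 library would stand apart. The Mmrn1 and Sdpr values lay below the lowest IL-25 library for these genes.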

How the results depend on the processing

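Of 9 genes called with IL-25 against base medium, DESeq2 called 25, a table without the low-count filter 32, a model of only the 6 libraries 16 and RLE scaling 8, and leaving out 1 of the 6 libraries gave 3 to 8. All 9 were among the 25, the 32 and the 16. The 14 calls of IL-25 with CGRP became 44 with DESeq2, 86 without the filter, 10 in a model of only the 7 libraries (without Il13, Irf4, Kdm6b and Nfkbiz), and 5 to 28 with 1 library left out. The difference of both effects had 0 calls under each alternative run except 18, Mmrn1 among them, without the filter. Called members of all gene lists numbered 5, against 13 with DESeq2, 11 without the filter, 8 with only the 6 libraries, and 3 to 6 with 1 library left out. Same-numbered IL-25 and base medium libraries correlated at 0.19, -0.10 and 0.07 in their deviations from the group means. So few libraries cannot settle whether the numbers pair them, and the labels do not say. With a replicate block 9 genes were called against base medium, 8 of them the same, with Gm9846 in place of Csf2 (adjusted p = 0.0744), and 6 with CGRP, where Il13, Csf2 and Ptgs2 were not called. With 1 library left out, small log2 differences changed sign in 5 genes that were never called. They spanned -0.147 to 0.301 for Calca, -0.308 to 0.0568 for Il17ra, -0.154 to 0.346 for Il4, -0.150 to 0.349 for Klrg1 and -0.417 to 0.00924 for Traf3ip2. The cause was not tested for any of these. Depth limits genes near 0, such as Mmrn1 with 2 counts over all base medium libraries.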

Other observations

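In the effect of IL-25 averaged over both settings, the 31 genes called were 20 to 36 with 1 library left out, and DESeq2 called 75. Tph1 had an averaged log2 fold change of 1.70 ± 0.21 (SE), Gadd45g of 1.45 ± 0.19, Ccr4 of 1.44 ± 0.23 and Il2ra of 0.96 ± 0.16.

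Nfkbiz, Irf4, Nr4a1, Kdm6b, Myc and Bcl3 were also among the called genes and were picked in the same way. Nfkbiz had an averaged log2 fold change of 1.10 ± 0.16, with 683 ± 95.1 CPM in IL-25 with CGRP and 303 ± 51.3 CPM in CGRP. Irf4 had 1.57 ± 0.24, Nr4a1 1.37 ± 0.21 and Kdm6b, a histone H3K27 demethylase gene, 0.97 ± 0.18. Myc had 1.22 ± 0.22. Bcl3 had 1.44 ± 0.28. Nfkbiz, Irf4, Nr4a1 and Myc were called whichever single library was left out, while Kdm6b lost its call without any 1 of 4 libraries and Bcl3 without any 1 of 8.

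Furin, Myo6 and Tfrc were also called, picked here after their values were seen. Furin, which encodes a protease that processes secreted proteins, had 848, 925 and 772 CPM with IL-25, against 415, 461 and 334 CPM in base medium. With CGRP, Furin had 1529, 2844 and 1794 CPM with IL-25, against 1249.9, 929.9, 859.96 and 974 CPM in CGRP alone. Its averaged log2 fold change was 1.05 ± 0.18. Myo6, an actin motor of vesicle transport, had 1.14 ± 0.19, and Tfrc, the transferrin receptor, 1.06 ± 0.22, with a call that was lost without any 1 of 10 libraries. Ptger2, Il6 and Pecam1, which edgeR did not call against base medium above, were called in this average too (adjusted p = 0.0336, 0.0155 and 0.0039). Ptger2 lost that call without any 1 of several libraries, and Il6 without IL-25 library 2 or base medium library 2.

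Eya2 and Gsn were the 2 lower genes, and their calls were lost without any 1 of 10 libraries for Eya2 and without base medium library 3 for Gsn. Eya2, a transcriptional coactivator and phosphatase gene, had 20.4 ± 3.98 CPM with IL-25 and 24.4 ± 6.33 CPM in base medium, while it had 3.76 ± 0.376 CPM in IL-25 with CGRP and 28.9 ± 10.7 CPM in CGRP. Gsn, which encodes the actin-severing protein gelsolin, was at 0 in all 3 libraries of IL-25 with CGRP, against 2.47 to 17.4 CPM in CGRP. With IL-25 alone Gsn had 0, 2.02 and 0.499 CPM, against 0.512, 4.92 and 55.0 CPM in base medium, where 1 library held most of it and the groups overlapped. The difference of both effects was not called for either gene by edgeR.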
